A study of Homo sapiens with 9 samples.

Results

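The genes described are 10 members of the human interferon system, selected by symbol: the ligand genes IFNB1, IFNL1, IFNL2 and IFNL3, and the receptor chain genes IFNAR1, IFNAR2, IFNLR1, IL10RB, IFNGR1 and IFNGR2. They were 10 of the 60617 Ensembl identifiers in the files, and each symbol matched 1 identifier. RNA-seq was performed on PC-3, an established human prostate cancer cell line with no engineered change stated in the labels. The 9 libraries, sequenced on the BGISEQ-500 platform from total RNA, comprised 3 controls given vehicle only, 3 treated with 1 µM of decitabine and 3 treated with 1 µM of decitabine and 200 µM of SAM (S-adenosylmethionine) together, here called the combination, with cells taken after 5 days. Decitabine is a cytidine analog that traps DNA methyltransferases and so lowers DNA methylation, and SAM is the cell's methyl donor. Libraries of cells given SAM alone were not analysed here, so SAM was seen only on top of decitabine. The labels number 3 libraries per group without stating that they came from separate cultures, so the p-values measure the spread between these libraries, which may be technical.

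Interferons are secreted proteins that switch on antiviral and immune genes in the cells that bind them. Type I interferons, among them interferon beta from IFNB1, bind a receptor made of IFNAR1 and IFNAR2. Type III interferons, the lambda interferons from IFNL1, IFNL2 and IFNL3, bind IFNLR1 together with IL10RB, a chain shared with the receptors for interleukin 10 and interleukin 22. Type II interferon, interferon gamma, binds IFNGR1 and IFNGR2. Kinases of the JAK family on these chains activate STAT transcription factors. Cells make interferon beta and the lambda interferons after sensors of nucleic acids have been triggered, while interferon gamma comes mainly from lymphocytes.

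The ligand genes lie in different parts of the genome from the receptor genes (GENCODE 44 on GRCh38). IFNB1 (ENSG00000171855, chr9:21077104-21077942, minus strand) has a single exon. IFNL1 (ENSG00000182393, chr19:39296407-39298673), IFNL2 (ENSG00000183709, chr19:39268396-39270188) and IFNL3 (ENSG00000197110, chr19:39243455-39245250) form a cluster on chromosome 19, in which IFNL3 is read from the minus strand. Of the receptor genes, IFNAR2, IL10RB, IFNAR1 and IFNGR2 follow one another on chromosome 21 between positions 33205282 and 33479348. IFNGR1 lies on chromosome 6 (137197483 to 137219449, minus strand) and IFNLR1 on chromosome 1 (24154168 to 24187959, minus strand).

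Decitabine lowers methylation at CpG sites, so the promoters of the ligand genes are shown together with that of IFNGR1, the receptor gene with the largest change. The sequences are the 250 bases before the transcription start in RefSeq (GRCh38.p14), given 5′ to 3′ on the gene's own strand. In the 3 ligand promoters, capitals mark matches to an ISRE-like motif GAAANNGAAA or to an NF-kB-like motif GGGANNTTCC. Both strands were searched, so an ISRE-like match on the other strand reads TTTCNNTTTC. GAAANNGAAA is a form of the letters bound by interferon regulatory factors. In IFNGR1, capitals mark the CpG sites.
IFNB1, chr9:21077943-21078192, minus strand: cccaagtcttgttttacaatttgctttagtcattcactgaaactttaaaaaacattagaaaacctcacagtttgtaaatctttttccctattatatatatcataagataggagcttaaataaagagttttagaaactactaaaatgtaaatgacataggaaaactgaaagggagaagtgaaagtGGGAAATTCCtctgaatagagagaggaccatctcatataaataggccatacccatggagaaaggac
IFNL1, chr19:39296157-39296406, plus strand: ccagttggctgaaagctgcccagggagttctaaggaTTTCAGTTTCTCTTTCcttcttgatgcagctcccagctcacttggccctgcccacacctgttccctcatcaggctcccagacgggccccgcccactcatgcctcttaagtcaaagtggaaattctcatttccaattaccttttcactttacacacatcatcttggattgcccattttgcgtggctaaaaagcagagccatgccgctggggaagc
IFNL2, chr19:39268146-39268395, plus strand: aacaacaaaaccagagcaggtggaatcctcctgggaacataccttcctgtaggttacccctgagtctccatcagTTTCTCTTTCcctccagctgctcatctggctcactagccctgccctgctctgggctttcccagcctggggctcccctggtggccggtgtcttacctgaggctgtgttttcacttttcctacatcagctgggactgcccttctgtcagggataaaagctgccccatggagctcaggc
IFNGR1, chr6:137219386-137219635, minus strand: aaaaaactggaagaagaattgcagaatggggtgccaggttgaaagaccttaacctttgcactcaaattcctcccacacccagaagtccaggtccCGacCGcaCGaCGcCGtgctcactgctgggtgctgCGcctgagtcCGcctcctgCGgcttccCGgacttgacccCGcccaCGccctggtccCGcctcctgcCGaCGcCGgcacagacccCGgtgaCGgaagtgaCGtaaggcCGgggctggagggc

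IFNB1 held 1 NF-kB-like match, which begins at position -66 counted from the start site. The ISRE-like search took only the spacing of GAAANNGAAA, so related letters with another spacing, such as gaaaactgaaa before that match, were not marked. The lack of an ISRE-like match in IFNB1 therefore does not show that such letters are absent. IFNL1 held 2 ISRE-like matches that overlap each other, at -214 and -208, and IFNL2 held 1 at -176. The window of IFNL3 was identical to that of IFNL2 at 299 of 300 bases, counting 250 bases before and 50 after the start, and held the same ISRE-like match. Among the 35116 RefSeq promoter windows of 300 bases, 3.57% held an ISRE-like match and 1.61% an NF-kB-like match. Of the receptor genes, only IFNGR2 held either motif, 1 NF-kB-like match. Such matches describe the letters in the window and not the binding of a factor.

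The ligand and receptor promoters differed in CpG content. In windows of 300 bases, IFNB1, IFNL2 and IFNL3 each held 1 CpG site and IFNL1 held 6, against a median of 14 over all windows. The receptor windows nearest to the annotated gene start held 19 for IFNAR1, 25 each for IFNGR1 and IL10RB, 31 for IFNLR1 and 44 for IFNGR2. The IFNLR1 window lies 670 bases from the GENCODE gene start. The ligand windows therefore fell below the median, and the receptor windows above it. IFNAR2 was not among the promoter sequences used here. Methylation at these promoters was not analysed here.

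**Figure D1:**
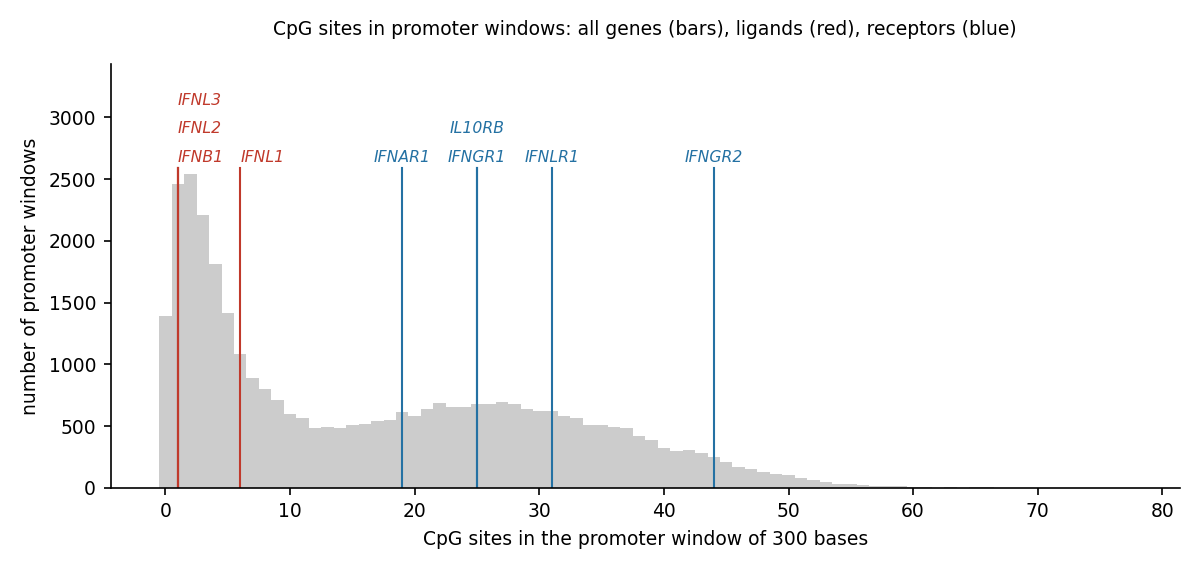
Number of CpG sites (x axis) in RefSeq promoter windows of 300 bases. Bars give the number of windows over all genes (y axis), red lines the 4 ligand genes and blue lines the 5 receptor genes with a window. The ligand genes hold 1 to 6 sites and the receptor genes 19 to 44.

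Totals lay between 21934307 and 22489684 estimated counts per library, and 18532 genes had enough counts for testing. The treatments changed a large part of these genes. With decitabine, 12759 genes differed from the controls at an adjusted p under 0.05 in edgeR's quasi-likelihood test, 6729 higher and 6030 lower. With the combination, 12446 did, 6647 higher and 5799 lower. The balance depends on the scaling: the TMM factors were 0.895 to 0.902 in the controls and 1.033 to 1.078 in the treated libraries. When only library size was used, 8849 were higher and 3746 lower with decitabine, and 8695 higher and 3857 lower with the combination, since the median change over all genes tested moved on the log2 scale from 0.035 to 0.281 and from 0.048 to 0.268. All fold changes below are TMM-scaled unless stated.

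Combination replicate 3 stood apart from the other two combination libraries in interferon genes. It was the highest of the combination libraries for 30 of 30 interferon-stimulated genes. Its summed level of these genes was 5180 CPM (counts scaled to a common library size), against 1890 and 2150 CPM in replicates 1 and 2. The same share over all genes is not given here. Over all genes with enough counts it also differed from replicates 1 and 2 (chi-square per degree of freedom 23.45 and 15.13, against 5.86 between those libraries). Replicates 1 and 3 of the controls (17.04) and of decitabine (17.97) differed too. The members are therefore given by library, and calls and list counts that changed without this library are given with and without it.

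The 4 ligand genes were almost silent in control PC-3 cells and were detected in every decitabine library. IFNB1 had 1, 1 and 0 estimated counts in the controls, 13, 10 and 27 with decitabine, and 0, 2 and 16 with the combination. All 3 decitabine libraries lay above all controls, while the combination libraries ranged from no count to a value above decitabine replicates 1 and 2. Over the 3 libraries, this was 50 counts with decitabine and 2 in the controls. The ratio was 21.3 per TMM-scaled library size, with a 95% interval of 5.58 to 180 that covers counting error only. IFNB1 was the only ligand gene with enough counts to be tested, and its log2 fold change with decitabine was 4.20 (SE 1.20, adjusted p = 0.0088, edgeR). IFNB1 passed the filter (minimum count 10) only through treated libraries, where it was high, so this p-value is no independent support for a rise. The fold change also rests on the 2 control counts.

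In the combination against control, the log2 fold change of IFNB1 was 2.77 (SE 1.44, adjusted p = 0.11, edgeR), which missed the threshold. In the combination against decitabine it was -1.42, with a 95% interval of -3.15 to 0.31 (adjusted p = 0.25, edgeR). Without the filter on low counts both passed (adjusted p = 0.0050 and 0.040, edgeR). Both values also turned on single libraries. Without combination replicate 3, which held 16 of the 18 counts, the log2 fold changes became 0.35 against control (adjusted p = 0.85) and -3.85 against decitabine (adjusted p = 0.0057). Without combination replicate 1, which held none, the comparison with control gave 3.34 (adjusted p = 0.019). These data thus gave no firm order of the combination and the other groups for IFNB1.

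The lambda interferon genes had fewer counts, and IFNL1, IFNL2 and IFNL3 were too low for the test across genes. IFNL1 had 1, 0 and 0 counts in the controls, 7, 10 and 22 with decitabine, and 4, 4 and 3 with the combination. No 2 of the 3 groups overlapped: every combination library lay above every control and below every decitabine library, and here combination replicate 3 was the lowest of its group. The ratio of decitabine to control was 33.2 (95% interval 5.61 to 1340), that of combination to control 9.59 (1.39 to 413) and that of combination to decitabine 0.289 (0.134 to 0.576), all for counting error only.

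IFNL2 had no count in the controls, 8, 7.33 and 8 with decitabine, and 0, 3 and 5 with the combination. Taking 3 counts over the control group as the limit that a count of 0 allows, the IFNL2 ratio to control was 6.52 with decitabine and 2.33 with the combination. These ratios take the treated counts as exact and leave out their counting error and the spread between libraries, so they are not lower bounds. The exact permutation p for the combination against control was 0.4. The decitabine libraries lay above all others, but the combination overlapped the controls through replicate 1. IFNL3 was the lowest ligand gene, with 0, 1 and 0 counts in the controls, 1, 3.67 and 6 with decitabine, and 0, 1 and 2 with the combination. Its groups overlapped in all comparisons, so no difference in IFNL3 was detectable at this depth by the ranges of the libraries.

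Reads of IFNL2 and IFNL3 cannot be fully separated. The canonical transcripts were identical at 94.4% of aligned positions, and 37.1% of the 31-base words of IFNL2 also occurred in IFNL3, while IFNL1 matched IFNL2 at 74.0% and IFNL3 at 76.0%. In decitabine replicate 2 the values 7.33 and 3.67 add to 11 whole counts. Summed, IFNL2 and IFNL3 had 0, 1 and 0 counts in the controls, 9, 11 and 14 with decitabine, and 0, 4 and 7 with the combination. The summed decitabine libraries lay above all others.

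All 3 lambda genes together had 1, 1 and 0 counts in the controls, 16, 21 and 36 with decitabine, and 4, 8 and 10 with the combination. These 3 ranges did not overlap. The ratio of combination to decitabine was 0.309 (95% interval 0.183 to 0.504, counting error only). An exact two-sided permutation test of 3 against 3 libraries cannot go below p = 0.1. It gave 0.1 for each of the 3 comparisons of this sum, and after Benjamini-Hochberg adjustment over 15 such tests of the lambda genes and their sums the value was 0.15. No lambda comparison thus passed the threshold in the exact test. When IFNL1 was entered into edgeR's quasi-likelihood test without the filter on low counts, its adjusted p was 9.2e-07 with decitabine, 0.025 with the combination and 0.029 between the treatments, on the few counts given above.

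**Figure D2:**
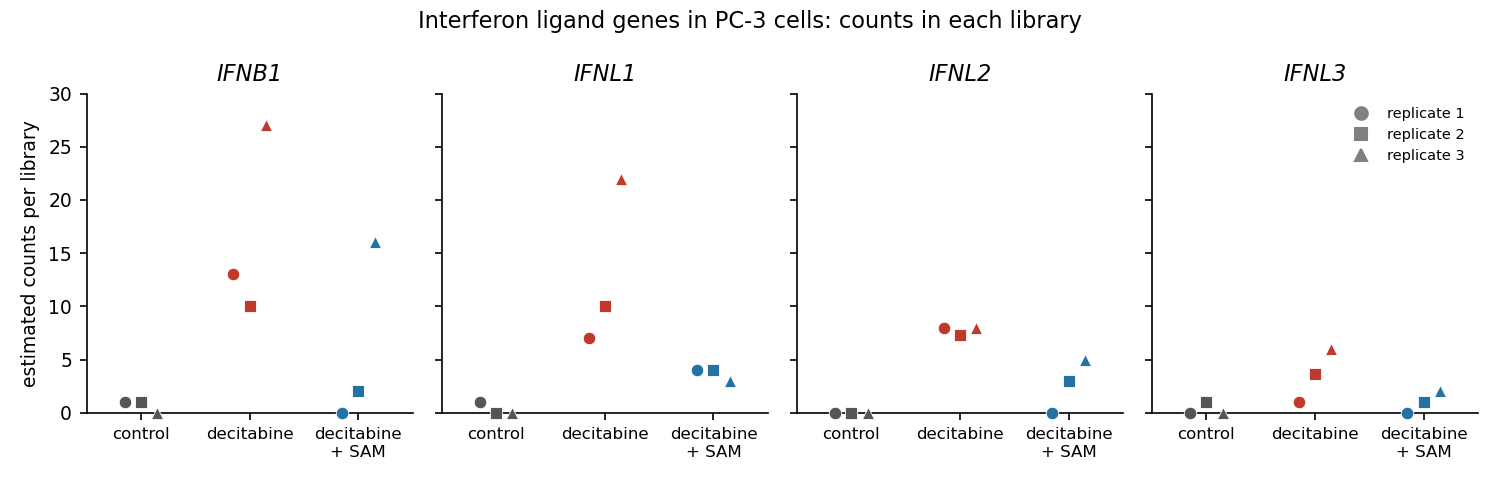
Estimated counts (y axis, not scaled) of the 4 ligand genes in each of the 9 libraries, with 3 libraries per group (x axis) and replicate numbers as symbols. IFNB1 reaches 27 counts with decitabine and 16 in combination replicate 3, and IFNL1 has 3 to 4 counts in each combination library against 7 to 22 with decitabine.

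Per length of transcript, the ligand genes stayed below the receptor genes even with decitabine. The mean levels with decitabine were 0.84 ± 0.459 CPM per kb for IFNB1, 0.709 ± 0.434 for IFNL1, 0.346 ± 0.0178 for IFNL2 and 0.212 ± 0.149 for IFNL3 (SD, n = 3). IFNB1 and IFNL1 overlapped in their libraries, as did IFNL2 and IFNL3. The lowest receptor gene, IFNLR1, was at 2.66 ± 0.0594 CPM per kb in the same libraries.

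Other interferon ligand genes, except IFNE, were nearly absent. Of 18 further genes (13 of the interferon alpha group together with IFNE, IFNK, IFNW1, IFNG and IFNL4), 12 had no count in any library, among them IFNG. IFNL4, which lies in the lambda cluster, had 5 counts over the decitabine libraries and 2 over the combination libraries. The only one with enough counts was IFNE, interferon epsilon, a type I interferon that epithelia make without infection. Its level was 1.33 ± 0.357 CPM in the controls, 0.563 ± 0.135 CPM in the decitabine libraries and 1.29 ± 0.384 CPM in the combination libraries (SD, n = 3). Over the control, decitabine and combination libraries IFNE had 80, 40 and 89 counts, against 2, 50 and 18 for IFNB1. IFNE fell with decitabine (log2 fold change -1.23, adjusted p = 0.0049, edgeR) and was higher with the combination than with decitabine (1.19, adjusted p = 0.029, edgeR).

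All 6 receptor genes were expressed in every library and were tested. Among the 7 members with enough counts, 4 were called with decitabine against control, namely IFNB1, IL10RB and IFNGR1 higher and IFNAR1 lower, where 68.8% of all tested genes were called, 36.3% higher and 32.5% lower. The groups of these 4 did not overlap, as for 72.9% of all tested genes. With the combination against control, 2 were called, IL10RB and IFNGR1, both higher, against 67.2% of all genes. Of the 7 members, 3 had no overlap there, against 71.6% of all genes. Between combination and decitabine, 0 of the 7 were called by edgeR, 0 had an unadjusted p under 0.05 and 0 were without overlap, where 15.7% of all genes were called and 34% had no overlap. DESeq2 (in which IFNB1 had no adjusted p) and voom with limma also called 0. The counts of 7 against these shares are read as no result about the members, and they depend on the filter and the scaling.

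IFNGR1, the chain that binds interferon gamma, had the largest change among the receptor genes. Its level was 22.3, 19.1 and 19.0 CPM in the controls, 39.5, 45.6 and 53.6 CPM with decitabine, and 42.5, 44.5 and 56.3 CPM with the combination. All 6 treated libraries lay above all controls, and both treated groups covered nearly the same range. The log2 fold change was 1.20 (SE 0.13, adjusted p = 3.1e-06) with decitabine and 1.25 (SE 0.13, adjusted p = 2.3e-06) with the combination, both by edgeR. The difference between the combination and decitabine was 0.048, with a 95% interval of -0.22 to 0.32 on the log2 scale.

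IFNGR2, the signalling partner of IFNGR1, was at 77.6, 68.4 and 68.9 CPM in the controls, 77.5, 73.0 and 66.9 CPM with decitabine, and 87.4, 73.1 and 64.7 CPM with the combination. The 3 groups overlapped throughout. The log2 fold change was 0.017 with decitabine (95% interval -0.20 to 0.23) and 0.068 with the combination (-0.15 to 0.29). With library size alone both became 0.26 and 0.29 and passed the threshold (adjusted p = 0.025 and 0.016, edgeR), values close to the shift of the median gene under that scaling. IFNGR2 shares 380 exonic bases with TMEM50B on the opposite strand, and use of strand in the counting is not given in the sources used here.

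The balance of the gamma receptor chains within a library does not depend on scaling. Per length, the ratio of IFNGR1 to IFNGR2 was 0.235, 0.228 and 0.226 in the controls, 0.418, 0.512 and 0.656 with decitabine, and 0.399, 0.498 and 0.713 with the combination. Each treated library exceeded each control. The exact two-sided permutation p was 0.1 for either treatment against control, the smallest possible value, and 0.15 after adjustment over the 9 ratio tests made.

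IL10RB, the shared chain of the lambda receptor, also rose. It was at 17.4, 17.1 and 15.7 CPM in the controls, 25.5, 25.4 and 29.6 CPM with decitabine, and 24.6, 24.3 and 27.6 CPM with the combination. The treated libraries again lay above all controls, and the treated groups overlapped. The log2 fold change was 0.68 (SE 0.10, adjusted p = 1.9e-05) with decitabine and 0.61 (SE 0.10, adjusted p = 6e-05) with the combination, by edgeR. Between the treatments it was -0.073 (95% interval -0.27 to 0.13).

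IFNLR1, the specific chain of the lambda receptor, was at 11.5, 11.7 and 11.9 CPM in the controls, 12.3, 12.4 and 11.9 CPM with decitabine, and 12.3, 13.8 and 14.4 CPM with the combination. The combination libraries lay above all controls by a small margin, while decitabine replicate 3 touched the controls. The log2 fold change was 0.057 with decitabine (95% interval -0.16 to 0.27) and 0.21 with the combination (-0.006 to 0.42, adjusted p = 0.079, edgeR). Without combination replicate 1 the latter was 0.26 and passed (adjusted p = 0.045). With library size alone it was 0.30 and 0.43, and both passed (adjusted p = 0.018 and 0.0019, edgeR).

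The ratio of IL10RB to IFNLR1 per length was 3.56, 3.45 and 3.11 in the controls, 4.88, 4.83 and 5.87 with decitabine, and 4.70, 4.13 and 4.50 with the combination. The 3 groups did not overlap, with the combination between the others. The exact permutation p was 0.1 for each comparison, the smallest possible value, and 0.15 after adjustment over the 9 ratio tests. This test cannot pass the threshold with 3 libraries per group, so it does not decide the order.

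IFNAR1 and IFNAR2, the chains of the type I receptor, moved little. IFNAR1 was at 75.9, 73.1 and 76.6 CPM in the controls, 63.7, 60.6 and 59.9 CPM with decitabine, and 61.6, 62.7 and 75.0 CPM with the combination. The decitabine libraries lay below all controls, and so did combination replicates 1 and 2, but combination replicate 3 fell within the control range. The log2 fold change with decitabine was -0.29 (SE 0.08, adjusted p = 0.0047, edgeR) with TMM scaling but -0.048 (adjusted p = 0.64) with library size alone. With the combination it was -0.18 (adjusted p = 0.061, edgeR), -0.28 without combination replicate 3 (adjusted p = 0.0037) and 0.044 with library size alone. Relative to the median gene IFNAR1 was lower under either scaling, while its direction in absolute terms was not settled.

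IFNAR2 was at 22.1, 23.1 and 22.8 CPM in the controls, 18.8, 21.2 and 24.4 CPM with decitabine, and 22.3, 21.9 and 24.3 CPM with the combination. The treated ranges enclosed or overlapped the controls. The log2 fold change was -0.078 with decitabine (95% interval -0.29 to 0.13) and 0.008 with the combination (-0.20 to 0.22). The ratio of IFNAR1 to IFNAR2 per length was 2.30, 2.13 and 2.26 in the controls, 2.27, 1.92 and 1.65 with decitabine, and 1.86, 1.92 and 2.08 with the combination. Only the combination was separate from the controls (exact permutation p = 0.1, adjusted 0.15), and the 3 group means lay between 1.95 and 2.23.

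**Figure D3:**
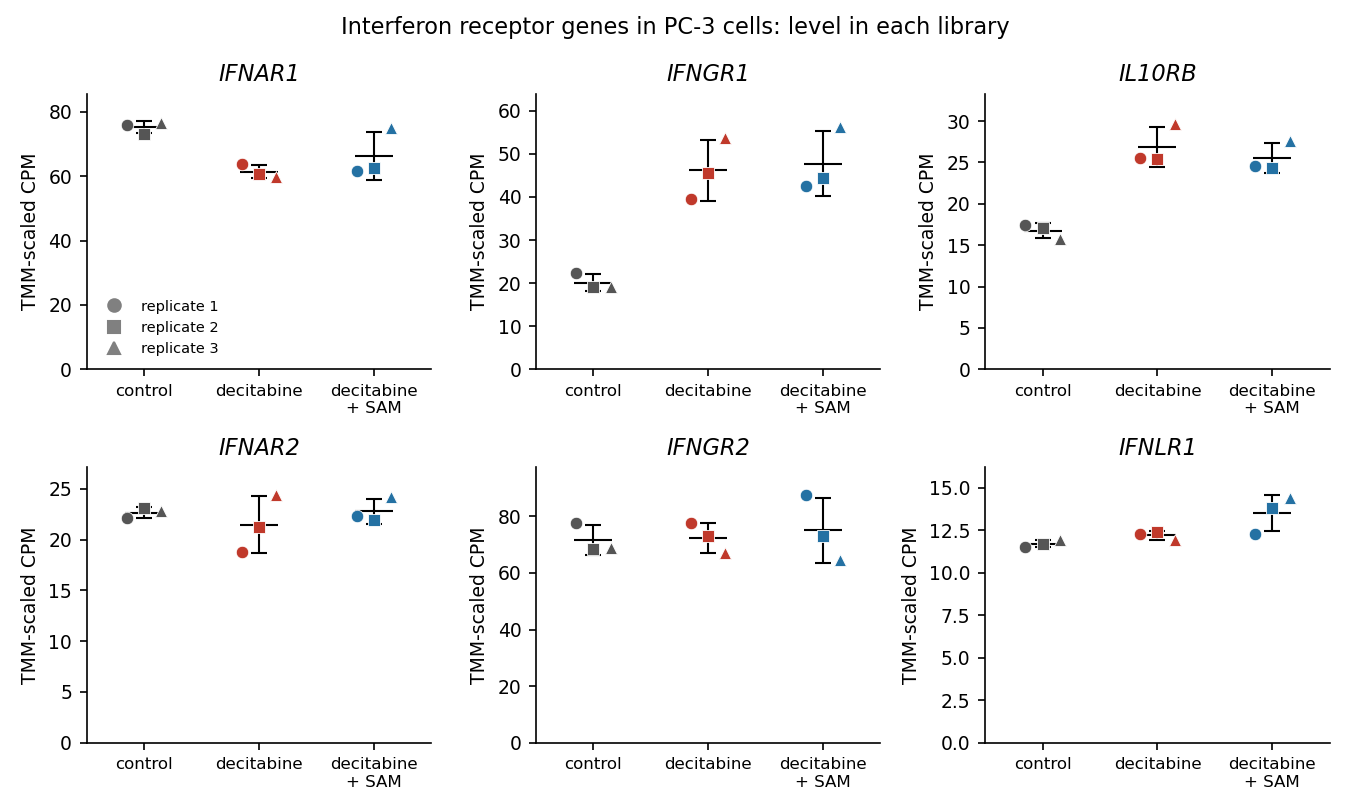
Level of the 6 receptor genes in each library (y axis, TMM-scaled CPM from 0), by group (x axis) and replicate number (symbols), with the mean and SD of 3 libraries as lines. IFNGR1 and IL10RB are higher in all 6 treated libraries than in all controls, and IFNAR1 in combination replicate 3 sits at the level of the controls.

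IFNAR2 and IL10RB are neighbours and share a readthrough gene, IFNAR2-IL10RB, which has 2038 exonic bases in common with IFNAR2 and 1732 with IL10RB. Its estimated counts were 0, 5.39 and 0 in the controls, 61.97, 1.86 and 2.12 with decitabine, and 9.77, 0 and 0 with the combination. Only decitabine replicate 1 held more than 10 counts. In that library IFNAR2 was lowest of its group. Adding these counts to either gene changed no call.

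In order of level per length, the controls ran IFNGR2 (42.2 CPM per kb), IFNAR1 (12.4), IFNGR1 (9.70), IL10RB (8.63), IFNAR2 (5.56) and IFNLR1 (2.56). With decitabine, IFNGR1 (22.3) and IL10RB (13.8) stood above IFNAR1 (10.1), while IFNGR2 stayed first and IFNLR1 last. The combination gave the same order as decitabine, with IFNGR1 at 23.0, IL10RB at 13.1 and IFNAR1 at 10.9 CPM per kb. In each group, neighbours in the order did not overlap across the 3 libraries.

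**Figure D4:**
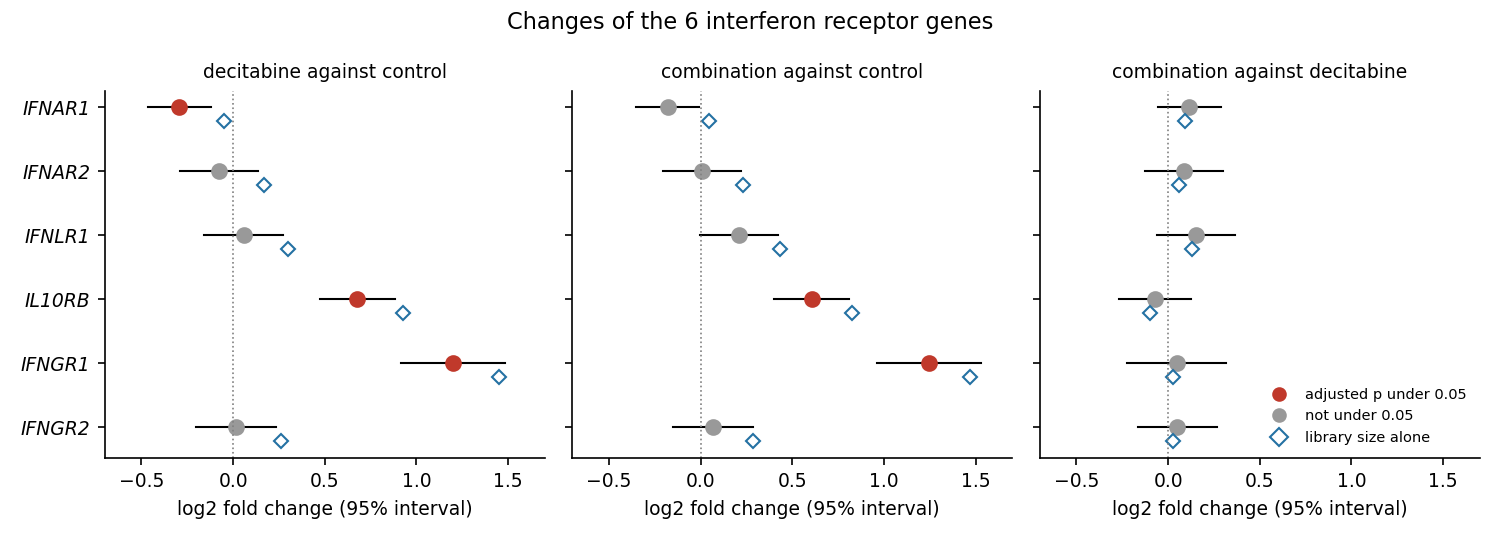
Log2 fold change (x axis) of the 6 receptor genes in the 3 comparisons. Circles and lines give the TMM-scaled estimate and its 95% interval from edgeR, red where the adjusted p is under 0.05, and open diamonds give the estimate with library size alone. IFNGR1 and IL10RB lie to the right of 0 in both comparisons with control, the diamonds of all 6 genes lie further right there, and all intervals between the treatments include 0.

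The genes that carry the signal from the receptors were described as a list of 7, of which STAT3 had no count in any library and 6 were tested. With decitabine, 4 rose and 1 fell (median log2 fold change 1.18, against 0.035 for all genes), where 36.3% of all genes were higher and 32.5% lower. The DNA-binding factor IRF9 (2.21) and its partner STAT2 (2.16) were among those that rose. With the combination, 2 rose and 1 fell: IRF9 (1.08) was among those that rose and TYK2, a kinase bound to IFNAR1, fell by 0.47, where 35.9% of all genes were higher and 31.3% lower. Against decitabine, 4 of 6 were lower with the combination, against 8.02% of all genes, among them STAT2 (-1.51) and IRF9 (-1.13). None of the 6 receptor genes was called between the treatments, where 15.7% of all genes were called, which is read as no result about the receptor genes.

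Of 9 negative regulators, 5 were higher and 3 lower with either treatment, beside 36.3% of all genes higher and 32.5% lower with decitabine and 35.9% and 31.3% with the combination, so the share of lower genes was close to the background. USP18, which blocks the type I receptor at IFNAR2, was higher by 2.98 with decitabine and 1.07 with the combination on the log2 scale (0.51 without combination replicate 3), and SOCS1, an inhibitor of JAK kinases, by 2.46 and 1.55. CISH fell by 1.18 with decitabine, and PTPN6 rose by 0.75 with the combination. Against decitabine, USP18 (-1.91) and SOCS1 (-0.90) were lower with the combination and PTPN11 (0.21) was higher, where 8.02% of all genes were lower and 7.67% higher. Leaving out combination replicate 3 gave 2 higher and 2 lower of the 9.

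Among 15 genes that induce interferons, 8 were higher and 1 lower with decitabine (36.3% and 32.5% of all genes), and 10 higher and 2 lower with the combination (35.9% and 31.3% of all genes). Without combination replicate 3, the combination gave 7 higher and 2 lower. The receptor for double-stranded RNA in endosomes, TLR3, had a log2 fold change of 5.21 with decitabine and 2.85 with the combination (adjusted p = 0.045, edgeR). Combination replicate 3 held 35 of the 44.2 TLR3 counts of its group, and without it the value was 1.20 (adjusted p = 0.20). The cytosolic RNA sensors IFIH1 (4.84 and 3.0) and RIGI (4.42 and 2.35) and the transcription factor IRF7 (3.16 and 1.86) followed the same order. Between the treatments 6 of the 15 were lower with the combination, these 4 among them, with log2 fold changes of -2.35 for TLR3 to -1.29 for IRF7, and none was higher, where 8.02% of all genes were lower. Without combination replicate 3, 9 of the 15 were lower, with TLR3 at -4.01.

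Of 30 interferon-stimulated genes, all 30 were higher with decitabine (median log2 fold change 4.23), where 36.3% of all genes were. This list, like the other lists here, was chosen with earlier results of these data known. Its shares therefore describe the listed genes and are no independent comparison with all genes. With the combination 24 of 30 were higher than in the controls (median 2.17, against 35.9% of all genes), and 24 of 30 were lower than with decitabine (median -2.12, against 8.02% of all genes). The antiviral genes EPSTI1 (6.86), RSAD2 (6.83), IFI27 (6.39) and MX2 (6.21) had the largest log2 fold changes with decitabine, and EPSTI1 (-2.30), MX1 (-2.28), XAF1 (-2.25) and IFIT3 (-2.23) those between the treatments among the genes called. Without combination replicate 3, 25 were higher than in the controls and 1 was lower, and all 30 were lower than with decitabine, with EPSTI1 at -3.57, MX1 at -2.97, XAF1 at -3.25 and IFIT3 at -3.01.

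The summed level of these 30 genes was 970, 1010 and 849 CPM in the controls, 11800, 11500 and 11300 CPM with decitabine, and 1890, 2150 and 5180 CPM with the combination. The 4 ligand genes together had 2, 2 and 0 counts, 29, 31 and 63 counts, and 4, 10 and 26 counts in the same libraries. The 3 groups did not overlap in either measure, and combination replicate 3 was the highest of its group in both. With decitabine the order differed: replicate 3 had the most ligand counts and the lowest summed level of the 30 genes. For 30 of 30 genes every decitabine library lay above every combination library. The list was chosen with earlier results of these data known, so the separation of its sum is no independent support.

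**Figure D5:**
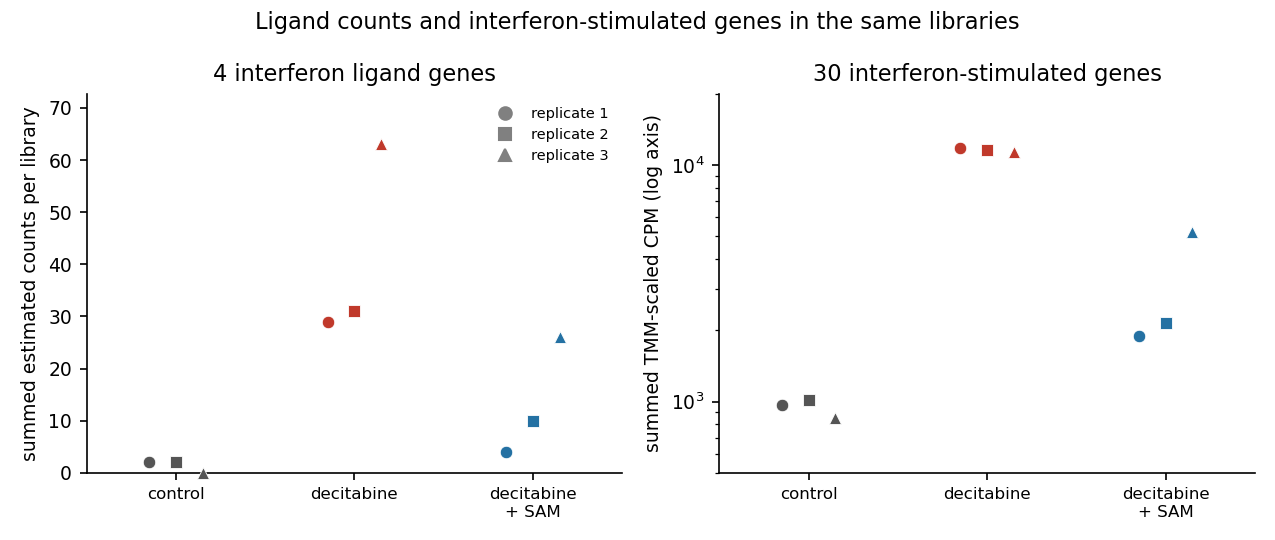
Left, summed estimated counts of the 4 ligand genes in each library (y axis from 0). Right, summed TMM-scaled CPM of 30 interferon-stimulated genes in the same libraries (log y axis). In both panels the combination (decitabine + SAM) lies between control and decitabine, with combination replicate 3 at 26 ligand counts and 5180 CPM.

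Genes raised mainly by interferon gamma were 12 on the list and 11 in the test, of which 10 were higher with decitabine (36.3% of all genes) and 6 with the combination (35.9% of all genes). IFNG itself had no count in any library. GBP5 (7.52), GBP1 (6.17), CXCL10 (5.50) and IDO1 (5.42) had the largest log2 fold changes among the genes called with decitabine, and GBP5 (5.50), CXCL11 (3.40), GBP4 (2.92) and PSMB9 (2.26) among those called with the combination. Without combination replicate 3 these 4 had 3.84, 2.39, 1.57 and 1.31, and CXCL11 was not called (adjusted p = 0.10, edgeR). Several of these genes also respond to type I interferon. Between the treatments, 5 of 11 were lower with the combination, led by CXCL10 (-3.05), and 10 of 11 without combination replicate 3, where 8.02% of all genes were lower in the fit of all libraries.

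The genes most alike to IFNB1 in pattern, by Pearson's r of log2 CPM over the 9 libraries, were PPP1R12A-AS1 (0.985), MAP3K14-AS1 (0.984) and CFLAR-AS1 (0.983). All 3 are antisense genes, for which reads cannot be told apart from those of the partner gene where strand was not used. The 9 points fall into 3 treatment groups and share their libraries, so the values describe the likeness and were not tested.

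The libraries carried epithelial markers throughout, with the 7 genes listed (EPCAM, KRT8, KRT18, KRT19, CDH1, CLDN4 and CLDN7) detected in every group. Of 10 leukocyte markers, 3 were tested (PTPRC, CD14 and CD68), and all 3 were higher with either treatment, as were 36.3% and 35.9% of all genes. The summed level of the 10 was 38.6 to 48.3 CPM in the controls, 223 to 300 CPM with decitabine and 105 to 183 CPM with the combination, nearly all from CD68, a lysosomal protein. PTPRC, which marks leukocytes as a class, was at 0.0828 CPM in the controls, 1.06 CPM in the decitabine libraries and 0.736 CPM in the combination libraries, and LILRA4 of plasmacytoid dendritic cells, known as strong producers of type I interferon, had no count. CD3E, which defines T cells, had no count in the controls, 3 counts over the decitabine libraries and 1 over the combination libraries. The part of these markers in the results above was not tested. In bulk RNA, more cells that express a gene and more RNA per cell cannot be told apart.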

How the data were processed

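RNA-seq of 9 PC-3 libraries was analysed in the 3 labelled groups. Per the study's methods and the submitters' processing notes, reads were trimmed with Trim Galore 0.6.4 and counted with kallisto on GRCh38.p13. The authors deposited estimated counts for each Ensembl gene, unscaled and partly with decimals. The log2 CPM values they deposited beside them were not used. Of 60617 identifiers, 60357 matched GENCODE 44.

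Counts were rounded, filtered with filterByExpr (minimum count 10), scaled by TMM and tested with edgeR 4.0.16 in R 4.3.3 (quasi-likelihood test, robust, 1 mean per group over all 9 libraries). P-values were adjusted over the 18532 genes tested by the Benjamini-Hochberg method, with a threshold of 0.05. The scripts were tested on simulated data. Levels are TMM-scaled CPM, and CPM per kb divides by the canonical transcript. Genes with few counts were compared by their deposited counts, by ratios with exact 95% intervals (floor 3 counts over a group) and by exact two-sided permutation tests. Pairs of libraries within a group differed by more than sampling noise (chi-square per degree of freedom 5.86 to 23.45).

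All 10 members are named. From each further list, up to 3 genes (signalling, negative regulators) or 4 (other lists) with the largest absolute change among called genes were named, and for likeness to IFNB1 the 3 highest correlations. Some results on single genes that this rule names are not reported here. Members and lists were chosen with earlier results of these data known. The alternatives tried were DESeq2 1.42.0 and its size factors, library size alone, voom and limma 3.58.1, other filters, a fold threshold, the 6 libraries compared, a replicate block, IFNL2 and IFNL3 summed, and leaving out each library. Sequences were taken from RefSeq (GRCh38.p14).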

Additional observations from a re-analysis of the deposited data

How the results depend on the processing

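The calls of IFNGR1 and IL10RB against control kept their direction under every alternative that was run, and a threshold of 1 on the log2 fold change was the only one under which IL10RB was not called. With that threshold 5347, 5178 and 397 genes were called with decitabine, with the combination and between them, in place of 12759, 12446 and 2908, and the members called were 2, 1 and 0. Library size alone called 5 of 7 members with decitabine (68% of all genes) and 4 with the combination (67.7%). No filter called 6 of 10 with decitabine (38.5% of 37784 genes), 6 with the combination (37.1%) and 2 between the treatments (9.36%), and left 0 ligands too low to test. Whether the members' share of calls lay above or below that of all genes thus changed with these settings. Without a filter, IFNL1 had log2 fold changes of 4.61 with decitabine (adjusted p = 9.2e-07), 2.87 with the combination (0.025) and -1.74 between them (0.029), and IFNL3 2.82 (0.058), 1.12 (0.60) and -1.71 (0.40), by edgeR. IFNL2 passed with decitabine (adjusted p = 3.8e-05) and the combination (0.014) and not between them (0.23), and IFNB1 passed with the combination (2.74, adjusted p = 0.0050) and between the treatments (-1.42, 0.040). IFNL2 and IFNL3 summed before such a fit gave 4.45 (0.0010), 2.89 (0.049) and -1.56 (0.10). Leaving out each library in turn gave 4 members called with decitabine throughout, 2 to 4 with the combination (4 without combination replicate 1) and 0 to 1 between the treatments (1, IFNB1, without combination replicate 3). Over all genes, calls between the treatments then ranged from 844 to 4063, with 1792 without decitabine replicate 1, 1010 without decitabine replicate 2, 1366 without combination replicate 1 and 844 without combination replicate 2.

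Reversals of sign concerned values near 0. With library size alone, IFNAR2 was 0.17 with decitabine and IFNAR1 0.044 with the combination. Without a filter, IFNGR2 was -0.023 with decitabine and IFNAR2 -0.023 with the combination. Leaving out single libraries gave -0.18 to 0.008 for IFNAR2 and -0.034 to 0.078 for IFNGR2 with decitabine. With the combination it gave -0.039 to 0.037 for IFNAR2 and -0.064 to 0.165 for IFNGR2. Between the treatments it gave -0.133 to 0.004 for IL10RB, -0.088 to 0.168 for IFNGR1 and -0.078 to 0.148 for IFNGR2. The cause was not tested.

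Deviations from the group means correlated from -0.017 to 0.233 between libraries with the same replicate number, and from -0.22 to 0.058 with different numbers. Between decitabine and combination, the value was 0.233 for replicates 1, 0.036 for replicates 2 and 0.229 for replicates 3. Replicate 1 of either treatment with replicate 3 of the other gave -0.22. Treated libraries with the same number thus deviated partly together. The numbers were not treated as pairs in the main fit, and whether they mark pairs is not known. With the replicate number as a block, calls over all genes were 12945, 12673 and 3656, and IFNB1 passed with the combination against control (2.64, adjusted p = 0.047, edgeR). The block ended no call of a member. Adding the readthrough counts to IFNAR2 or IL10RB, and the lists without combination replicate 3, were chosen after seeing the data. The low ligand counts limit what could be tested: with a filter on a mean of at least 10 counts IFNB1 was not tested either.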

Other observations

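The interferon receptor chains belong to the class II cytokine receptors, a structural family with further members. Of 6 such further genes, IL10RA had no count in any library and 4 were tested, all 4 of which were higher than in the controls with decitabine (median log2 fold change 1.58) and with the combination (0.95), where 36.3% and 35.9% of all genes tested were higher. F3, the gene of tissue factor, which starts blood clotting, rose from 2.09 ± 0.251 CPM in the controls to 51.2 ± 14.3 CPM with decitabine and 38.1 ± 15.3 CPM with the combination (SD, n = 3), with log2 fold changes of 4.62 (SE 0.42, adjusted p = 4e-05) and 4.19 (SE 0.42, adjusted p = 7.4e-05) in edgeR. IL22RA1, which pairs with IL10RB in the receptor for interleukin 22, had log2 fold changes of 1.84 and 0.95 and was lower with the combination than with decitabine (-0.89, adjusted p = 0.039, edgeR). IL20RA (0.97 and 0.95) and IL20RB (1.32 and 0.70), which form a receptor of interleukin 20, were higher with both. Without combination replicate 3, 2 of the 4 were higher with the combination than in the controls, as IL22RA1 (0.60, adjusted p = 0.087) and IL20RB (0.52, adjusted p = 0.072) were not called in edgeR, and 3 were lower than with decitabine.

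Of 7 epithelial markers, 3 were higher and 3 lower with decitabine, near the background of 36.3% and 32.5% of all genes. CLDN7 (log2 fold change 3.90) and CDH1 (2.94), both genes of cell contacts, were higher, as was KRT8 (1.14), and CLDN4 fell by 1.24. With the combination 3 were higher and 3 lower, with CLDN7 at 3.62, CDH1 at 3.17, KRT8 at 0.80 and CLDN4 at -1.38. Leaving out combination replicate 3 gave 4 higher and 3 lower. KRT8 was the only one called between the treatments (-0.34, adjusted p = 0.0094, edgeR).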
